A study of Mus musculus with 6 samples.

Results

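The genes described here are 10 that encode microtubule motors and their adaptors, selected by symbol from the 24421 genes of the deposited table: the kinesin heavy chains Kif1a, Kif1b, Kif5a, Kif5b and Kif5c, the dynein subunits Dync1h1, Dync1li1 and Dync1li2, and the mitochondrial adaptors Trak1 and Trak2. All 10 were in the table and all 10 passed the filter on low values, each with at least 163 reads in every library. RNA came from mouse cortical cells, labelled as astrocytes and sorted as mCherry-positive on postnatal day 21, with 3 libraries after clozapine-N-oxide (CNO 1, 2 and 3) and 3 after saline (saline 3, 4 and 5), 2 injections a day from day 7 to day 21. Both groups carried the CD51-Flp transgene and an AAV vector, labelled GFAP-FSF-hM3D-mCherry, given after birth, in which the GFAP promoter drives the receptor in cells with Flp. hM3D is a designer receptor coupled to Gq that CNO activates, and CD51 is integrin alpha V. A CNO group without the receptor was not analysed here, so receptor activation and other actions of the drug cannot be told apart. The labels do not say whether a library is 1 animal or a pool.

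Kinesins walk mainly towards the plus ends of microtubules and cytoplasmic dynein towards the minus ends. In glia these motors carry mRNA granules, mitochondria and vesicles into thin processes, and in oligodendrocytes the mRNA of myelin basic protein (Mbp) travels to the myelin sheath before it is translated. In zebrafish, Kif1b and the dynein heavy chain are needed to place mbp mRNA in these processes. TRAK proteins link mitochondria, through the Miro GTPases, to kinesin-1 and dynein.

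CNO 1 was the shallowest library, with 3908076 reads, and CNO 2 the deepest, with 19224186, and the saline libraries held 12010901 to 19052161. After the authors' size factors the totals were 14223762 to 16591952 normalized counts in CNO and 9588485 to 9857830 in saline, so a gene with an equal share of reads stands higher in CNO on that scale. Values are therefore given as normalized counts and, for the 10 genes, also as RPM, the reads of a gene per 1000000 reads of its library. The other genes are given as normalized counts, on which an absence of overlap need not hold as RPM. All 14 astrocyte markers had reads in every library, and they summed to 10628 to 35849 RPM in CNO and 19915 to 29960 in saline. Slc1a2 was the highest of them in each library. Gfap was at 4.23 normalized counts in CNO 1, which is 1 read. It was at 952 and 59.2 in CNO 2 and 3, against 1307, 374 and 507 in saline 3, 4 and 5. Oligodendrocyte markers, 12 of 12 in the table, took 111473 to 245178 RPM in CNO and 53312 to 78703 in saline, without overlap, and Mag and Aspa were at 0 reads in at least 1 library. Mbp made up most of that sum, with 96014 to 208316 RPM in CNO and 45788 to 63003 in saline. Of the 12, 8 were higher and 1 lower at an unadjusted p under 0.05, where 2.28% of tested genes were higher and 7.25% lower. A log2 fold change below 0 was found for 4 of the 12, while 31.7% of tested genes were above 0. Oligodendrocyte precursor markers summed to 1791 to 2432 RPM in CNO and 769 to 1474 in saline. Bcas1 was the highest of them in each library, at 25284, 28612 and 15604 normalized counts in CNO and 4711, 4253 and 8525 in saline. Of the 10 precursor markers, 5 had a log2 fold change above 0. The median of the 10 was -0.33 (0.61 in DESeq2), beside -0.89 (0.004 in DESeq2) for all tested genes. Microglia and macrophage markers summed to 5926 to 12914 RPM in CNO and 11092 to 14279 in saline. Endothelial markers (14.1 to 320 RPM in CNO, 54.9 to 163 in saline) and mural markers (56.0 to 163 RPM in CNO, 84.3 to 177 in saline) were low. Neuron markers summed to 799 to 1081 RPM in CNO and 919 to 1218 in saline, with Tubb3, Stmn2, Nefl, Nefm, Gad1, Gad2, Slc17a7 and Slc17a6 at 0 reads in at least 1 library. Camk2a was the highest of them in each library, at 15226, 7973 and 14332 normalized counts in CNO and 7469, 6739 and 8677 in saline. In the bulk libraries, fewer cells of a type and less RNA per cell cannot be told apart. Libraries of the CNO group differed more from one another (Spearman correlation over tested genes 0.558 to 0.667) than saline libraries did (0.798 to 0.819). Xist exceeded 10000 normalized counts in CNO 2, CNO 3 and saline 4, so libraries high in Xist were unevenly spread over the groups. Ddx3y stood at 2417, 6.66 and 1.94 normalized counts in CNO 1, 2 and 3, against 1452, 213 and 1955 in saline 3, 4 and 5.

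Of 5 pairs of related genes, Trak2 and Trak1 had the largest difference in ratio between the groups, so the sequences upstream of these genes are shown. Each window runs from 250 bases before to 50 bases after a RefSeq start (GRCm38.p6), 5′ to 3′ on the strand of the gene. Capitals mark GC boxes (GGGCGG), bound by Sp1 family factors, or a cAMP response element (TGACGTCA), read on both strands. Trak2 has 1 window, chr1:58973433-58973732 on the minus strand. Trak1 has 4, of which the outermost, chr9:121297252-121297551, and the innermost, chr9:121403196-121403495, both on the plus strand, are given.
Trak2: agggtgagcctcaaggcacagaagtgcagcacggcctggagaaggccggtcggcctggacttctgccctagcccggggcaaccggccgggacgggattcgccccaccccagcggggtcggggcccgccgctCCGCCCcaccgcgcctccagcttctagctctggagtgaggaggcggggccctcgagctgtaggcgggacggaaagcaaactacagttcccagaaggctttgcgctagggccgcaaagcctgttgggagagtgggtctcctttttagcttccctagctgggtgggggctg
Trak1 outermost: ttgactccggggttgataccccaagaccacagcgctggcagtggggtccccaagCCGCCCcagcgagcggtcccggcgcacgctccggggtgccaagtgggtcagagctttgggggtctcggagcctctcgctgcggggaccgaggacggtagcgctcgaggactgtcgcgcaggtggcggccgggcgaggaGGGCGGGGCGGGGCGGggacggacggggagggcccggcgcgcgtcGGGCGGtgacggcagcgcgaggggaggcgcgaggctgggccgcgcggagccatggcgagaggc
Trak1 innermost: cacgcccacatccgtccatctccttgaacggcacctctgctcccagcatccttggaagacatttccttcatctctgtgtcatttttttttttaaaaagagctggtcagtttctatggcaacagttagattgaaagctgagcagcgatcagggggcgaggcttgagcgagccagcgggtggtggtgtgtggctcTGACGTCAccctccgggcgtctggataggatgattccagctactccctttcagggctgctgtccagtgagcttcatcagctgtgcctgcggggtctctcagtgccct
Trak2 holds 1 GC box, the outermost Trak1 window 5, of which 3 run head to tail and share bases, and the innermost Trak1 window none but 1 cAMP response element. Of 32851 promoter windows searched, 35.7% hold a GC box and 1.79% a cAMP response element. Windows were found for 7 of the 10 genes, 12 in all (Kif1a, Kif1b, Kif5c, Dync1h1, Dync1li1, Trak1 and Trak2). A GC box was in 8 of the 12, from 6 of the 7 genes, and a cAMP response element in 2, those of Trak1 and Kif5c. The windows of Kif1b overlap and hold the same GC boxes, so the 12 windows are not independent. The AP-1 site TGANTCA was in 0 of the 12, against 7.81% of all windows, and the E-box CACGTG in 1, that of Kif1a, against 7.15%. These matches describe the letters in the windows and no binding was measured.

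Each CNO library held more Trak2 than each saline library. Trak2 stood at 12103, 22653 and 15102 normalized counts in CNO 1, 2 and 3, against 2582, 2891 and 5267 in saline 3, 4 and 5. CNO 2 was the highest library and saline 5 the highest of its group, and the groups did not overlap. The means were 16619 ± 5436 in CNO and 3580 ± 1469 in saline (SD, n = 3 each), a ratio of 4.64. The log2 fold change was 2.24 ± 0.41 (SE), and Trak2 ranked 5 by p among 13028 tested genes, but it did not pass the adjusted threshold of 0.05 in limma (adjusted p = 0.387). Tested genes are those with a mean of at least 10 normalized counts. With single libraries left out the log2 fold change was 1.99 (without CNO replicate 2) to 2.55 (without saline replicate 5). As RPM it averaged 1079 ± 454 in CNO and 371 ± 156 in saline, again without overlap. Trak2 was called higher by limma-voom (adjusted p = 0.00969), with array weights (adjusted p = 0.0176) and by DESeq2 (adjusted p = 0.0393), and not by edgeR (adjusted p = 0.535). Over all alternatives its log2 fold change lay between 1.5 and 2.55 and its adjusted p between 0.00969 and 0.648.

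Trak1, the paralog that also serves as a mitochondrial adaptor, was lower in the mean of the CNO libraries. It had 689, 429 and 425 normalized counts in CNO 1, 2 and 3, against 978, 1450 and 426 in saline 3, 4 and 5. Saline 5 lay as low as CNO 3, so the groups overlapped on this scale. The log2 fold change was -0.75 ± 0.76 (limma adjusted p = 0.714). As RPM the values were 41.7, 30.2 and 25.6 in CNO and 99.3, 151 and 44.4 in saline, which did not overlap. The lowest read number behind a value of the 10 genes is that of Trak1 in CNO 1, 163 reads, where 41.7 RPM has a 95% Wilson interval of 35.8 to 48.6. The intervals cover counting error only, since the reads carry no molecular identifiers.

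A ratio of a pair of genes within a library does not depend on the size factor. The log2 ratio of Trak2 over Trak1 was 4.13, 5.72 and 5.15 in CNO 1, 2 and 3 and 1.40, 1.0 and 3.63 in saline 3, 4 and 5. Every CNO library was above every saline library, with saline 5 nearest to the CNO values. The difference between the means was 2.99, or 7.96-fold (exact permutation test, two-sided, p = 0.1, adjusted p = 0.25 over 5 ratios; 0.1 is the smallest p that 20 assignments allow). Without saline replicate 5 the difference was 3.80, and it was 2.49 to 3.80 over all single libraries left out.

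**Figure D1:**
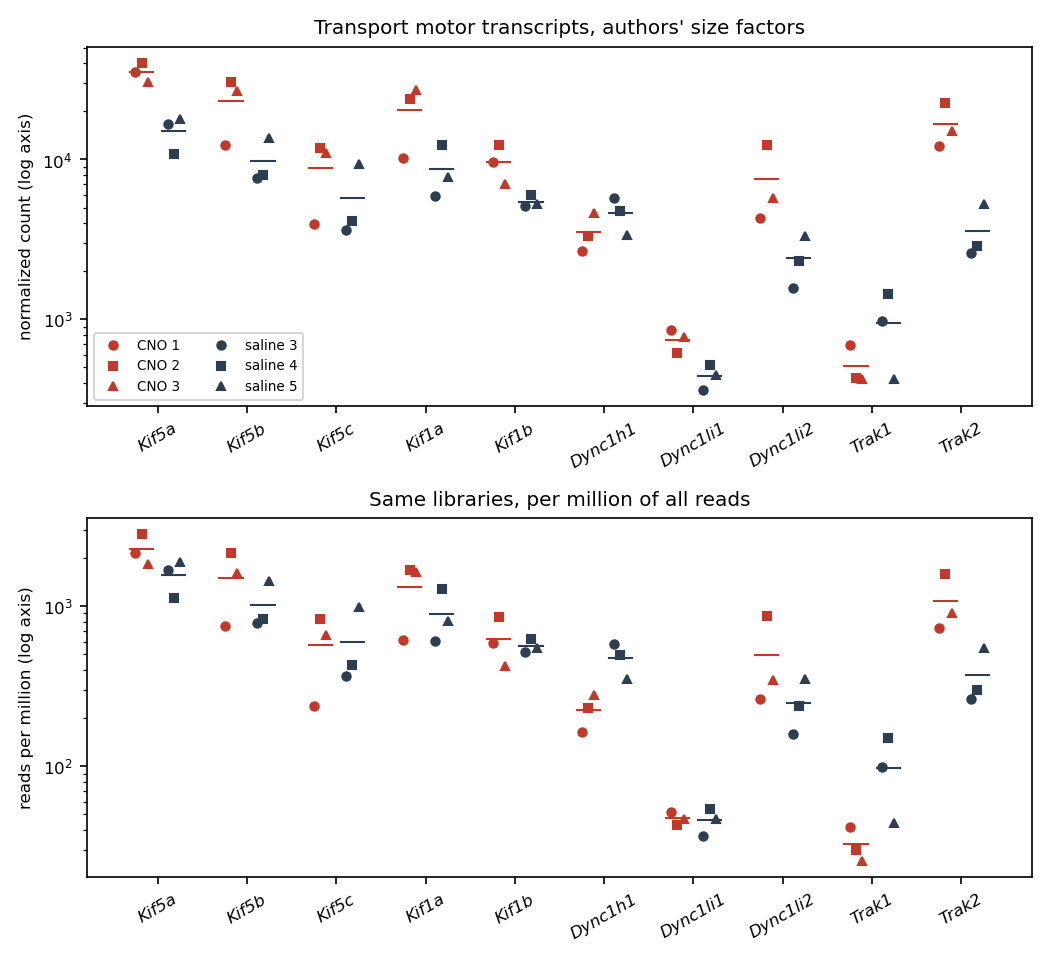
Each point is 1 library (red CNO, dark saline; bars are group means, n = 3 each) for the 10 transport genes, as normalized counts (top) and RPM (bottom), both on log axes. Trak2 stands apart between the groups in both panels, while Kif1b, Kif5a, Dync1li1 and Dync1li2 do so only in the top one.

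Kif5a, Kif5b and Kif5c encode the kinesin-1 heavy chains, which pull mitochondria and RNA granules. Kif5a, best known from neurons, had 35329, 39930 and 30389 normalized counts in CNO 1, 2 and 3, against 16565, 10870 and 17964 in saline 3, 4 and 5. Each CNO library was well above each saline library, and saline 4 was the lowest. The log2 fold change was 1.24 ± 0.29 (limma adjusted p = 0.488, unadjusted p = 0.00128). In RPM, Kif5a averaged 2259 ± 499 in CNO and 1562 ± 385 in saline, and the groups overlapped.

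Kif5b, the broadly expressed member, had 12369, 30333 and 26755 normalized counts in CNO 1, 2 and 3, against 7684, 8005 and 13695 in saline 3, 4 and 5. CNO 1 was below saline 5, so the groups overlapped (log2 fold change 1.19 ± 0.40, limma adjusted p = 0.488). In RPM, Kif5b averaged 1498 ± 699 in CNO and 1013 ± 360 in saline. Kif5c had 3939, 11765 and 10902 in CNO and 3625, 4116 and 9421 in saline, and CNO 1 and saline 5 each stood apart from the other libraries of their group. Its log2 fold change was 0.62 ± 0.52 (limma adjusted p = 0.672), and it was below 0 with quantile scaling, at -0.0773, and as RPM of all reads, at -0.0850. The RPM means of Kif5c were 574 ± 303 in CNO and 593 ± 339 in saline.

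Relative to Kif5b, Kif5c was lower in CNO. The log2 ratio of Kif5c over Kif5b was -1.65, -1.37 and -1.30 in CNO 1, 2 and 3 and -1.08, -0.96 and -0.54 in saline 3, 4 and 5. All CNO libraries were lower than all saline libraries, by 0.58 in the mean (exact permutation p = 0.1, adjusted p = 0.25). The log2 ratio of Kif5a over Kif5b averaged 0.70 ± 0.71 in the CNO group, against 0.65 ± 0.40 in the saline group (exact permutation p = 0.9, adjusted p = 0.9). CNO 1 held the highest value of it, 1.51, and CNO 3 the lowest, 0.18.

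The kinesin-3 genes encode fast carriers of vesicles, and Kif1b also yields a form that moves mitochondria. Kif1a had 10163, 23959 and 27243 normalized counts in CNO 1, 2 and 3, against 5937, 12351 and 7744 in saline 3, 4 and 5. CNO 1 lay below saline 4, and the other 2 CNO libraries were above all saline libraries (log2 fold change 1.18 ± 0.43, limma adjusted p = 0.488). In RPM, Kif1a averaged 1314 ± 605 in CNO and 898 ± 350 in saline, with overlap. Kif1b had 9656, 12241 and 7028 in CNO and 5094, 5981 and 5261 in saline. The groups did not overlap, and the saline libraries lay close together (log2 fold change 0.79 ± 0.36, limma adjusted p = 0.526). In RPM, Kif1b averaged 623 ± 221 in CNO and 563 ± 54.0 in saline, a difference smaller than the spread. The log2 ratio of Kif1a over Kif1b averaged 1.0 ± 0.94 in the CNO group, against 0.61 ± 0.41 in the saline group (exact permutation p = 0.7, adjusted p = 0.875).

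The dynein subunits differed in direction. Dync1h1, the heavy chain that holds the motor, had 2683, 3305 and 4640 normalized counts in CNO 1, 2 and 3, against 5735, 4783 and 3374 in saline 3, 4 and 5. The groups overlapped through CNO 3 and saline 5 (log2 fold change -0.39 ± 0.43, limma adjusted p = 0.737). In RPM, Dync1h1 averaged 225 ± 59.0 in CNO and 477 ± 116 in saline, and every CNO library was lower than every saline library.

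Dync1li2, a light intermediate chain that binds cargo adaptors, had 4327, 12394 and 5762 normalized counts in CNO 1, 2 and 3, against 1566, 2302 and 3344 in saline 3, 4 and 5. The groups did not overlap, and CNO 2 was more than the sum of the other 2 CNO libraries. The means were 7494 ± 4303 in CNO and 2404 ± 894 in saline, a ratio of 3.12 (log2 fold change 1.56 ± 0.51, limma adjusted p = 0.488). In RPM, Dync1li2 averaged 494 ± 330 in CNO and 249 ± 95.3 in saline, and the groups overlapped, since CNO 1 and CNO 3, at 262 and 347, were below saline 5, at 349. Its paralog Dync1li1 was far less abundant, at 854, 612 and 777 in CNO and 362, 519 and 451 in saline, without overlap (log2 fold change 0.75 ± 0.72, limma adjusted p = 0.701). In RPM, Dync1li1 averaged 47.2 ± 4.34 in CNO and 45.9 ± 8.73 in saline. The log2 ratio of Dync1li1 over Dync1li2 averaged -3.19 ± 1.03 in CNO and -2.38 ± 0.44 in saline, with overlap (exact permutation p = 0.2, adjusted p = 0.333). The difference of -0.81 was -0.23 without CNO replicate 2.

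**Figure D2:**
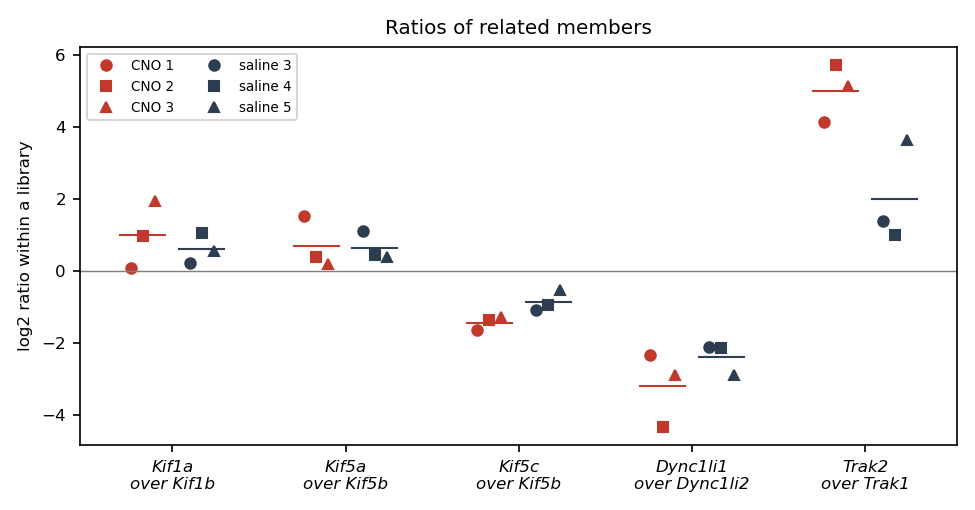
Log2 ratio of related transport genes within each library (points; bars are group means, red CNO, dark saline, n = 3 each). Trak2 over Trak1 and Kif5c over Kif5b are the ratios without overlap between the groups.

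Across the 10 genes, 0 passed in limma, where 0.0154% of tested genes were called (2 of 13028, Mbp and Mobp, both higher). At an unadjusted p under 0.05, 5 were higher (Trak2, Kif5a, Dync1li2, Kif5b and Kif1a) and 0 lower, where 2.28% of tested genes were higher and 7.25% lower, 9.53% in all. In either direction, an unadjusted p under 0.05 was found for 2 of the 10 without CNO replicate 2 (2659 of 13028 tested genes) and without saline replicate 3 (813). The number was also 2 with quantile scaling (995), as RPM outside oligodendrocyte markers (1433) and as RPM of all reads (1739). It was 1 with no variance trend (1375) and 3 with DESeq2 (1485). Directions could differ, since as RPM of all reads Dync1h1 had a log2 fold change of -1.09 ± 0.42 (SE) and Kif5a 0.54 ± 0.29. limma-voom, array weights and DESeq2 each called 1 of the 10, Trak2, against 0.123%, 0.0844% and 0.53% of tested genes called higher (DESeq2 called 1.91% in either direction). edgeR called 0 of the 10 and 0% of tested genes, and without a filter on low genes 0 of the 10 and 0.0785% higher. On normalized counts 5 of the 10 were higher in every CNO library (Kif1b, Kif5a, Dync1li1, Dync1li2 and Trak2) and 0 lower (12.5% of tested genes), against 4.57% of all tested genes higher and 12.3% of the 3465 tested genes with a mean between 596 and 25175, the range of the 10. As RPM of all reads 1 was higher, Trak2, and 2 lower, Dync1h1 and Trak1, against 1.13% higher and 21.3% lower. As RPM outside the oligodendrocyte markers, Kif5a joined Trak2 as higher (1.7% of tested genes) and the same 2 were lower (17.5%).

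The median log2 fold change of the 10 was 0.99, beside -0.89 for all tested genes and 0.23 for those in the same range of level. A log2 fold change above 0 was found for 8 of the 10, all but Dync1h1 and Trak1, and for 31.7% of tested genes and 60.2% of those in the range. The median of the 10 was 0.48 as RPM outside oligodendrocyte markers and 0.29 as RPM of all reads, where the median of all tested genes was -1.40 and -1.58. It was 1.02 in DESeq2, beside 0.004 for all genes, and 0.41 with quantile scaling, beside -0.08. CNO 2 was the highest CNO library for 6 of the 10 and CNO 1 the lowest for 6.

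**Figure D3:**
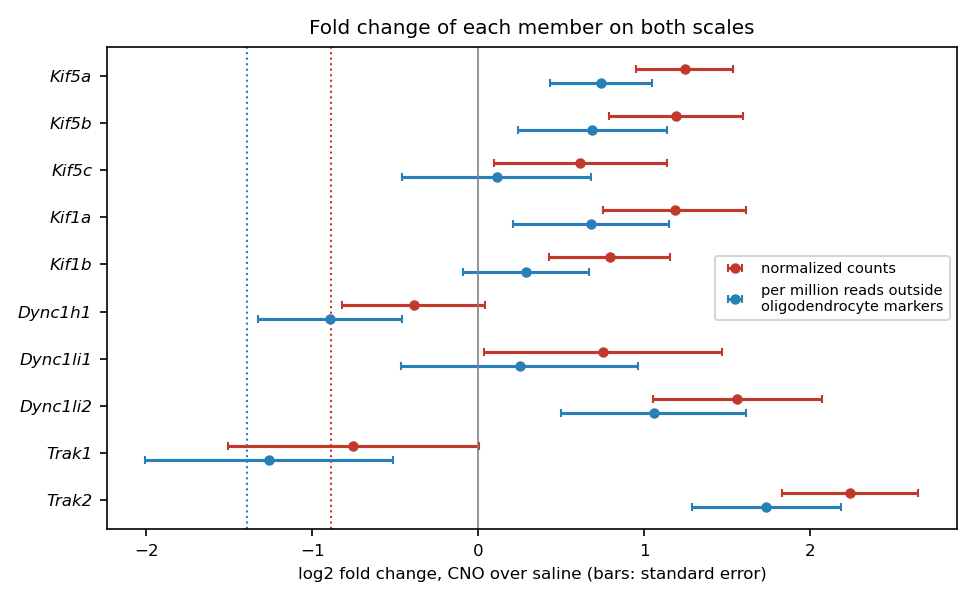
Log2 fold change of each gene, CNO over saline, with its standard error (n = 3 each), on normalized counts (red) and as RPM outside oligodendrocyte markers (blue); dotted lines are the medians of all tested genes on each scale. Trak2 stays at 1.74 on the second scale, while Kif1b, Kif5c and Dync1li1 come within 1 standard error of 0.

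To compare levels between genes, normalized counts were divided by the summed length of a gene's exons in kilobases (GENCODE M21). On this scale Kif5a was the highest in both groups, at 5038 ± 683 in CNO and 2165 ± 538 in saline. In CNO the order went on with Kif5b at 2901, Trak2 at 2345, Kif1a at 2192, Dync1li2 at 1243, Kif5c at 1242 and Kif1b at 548. Kif5b down to Kif1b each overlapped with its neighbour over the 3 libraries, and Kif5a stood apart. Dync1h1 at 226 and Dync1li1 at 193 overlapped, and Trak1, at 40.9, was lowest and apart. In saline Kif5a was followed by Kif5b at 1227, Kif1a at 930, Kif5c at 801, Trak2 at 505, Dync1li2 at 399, Kif1b at 309, Dync1h1 at 296, Dync1li1 at 115 and Trak1 at 75.7, and only Dync1h1 and Dync1li1 stood apart as neighbours. Trak2 thus held rank 3 in CNO and rank 5 in saline, and its level per kilobase was above that of Trak1 in every library.

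The genes lie on 8 chromosomes (GRCm38, GENCODE M21, all protein-coding). Trak2 is on chromosome 1 at 58900449 to 58973430 and Kif1a on the same chromosome at 93015464 to 93101951. On chromosome 9, Trak1 is at 121297502 to 121474918 and Dync1li1 at 114688790 to 114724302. Kif5c is on chromosome 2 at 49619298 to 49774778, Kif1b on chromosome 4 at 149176319 to 149307693, Dync1li2 on chromosome 8 at 104417680 to 104443047, Kif5a on chromosome 10 at 127225696 to 127263348 and Dync1h1 on chromosome 12 at 110601452 to 110666945. Kif5b is on chromosome 18. Exons of other genes on the opposite strand cover 7.08% of the exon length of Dync1li2, 4.06% of that of Kif5b and 2.88% of that of Dync1h1, and 0% of the other 7. How strand was treated is not stated in these sources, so reads in those stretches cannot be assigned to 1 gene.

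The genes whose log2 profile over the 6 libraries lay closest to Trak2, after each was centred on its own mean, were Mobp, Fth1, S100b, Golga7 and Mbp. Their root mean square differences from Trak2 were 0.19, 0.23, 0.24, 0.25 and 0.25 on the log2 scale. Fold changes near that of Trak2 largely follow from this choice of genes. Mobp and Mbp encode myelin proteins and were the called genes, with log2 fold changes of 2.35 ± 0.26 (limma adjusted p = 0.00926) and 2.19 ± 0.22 (limma adjusted p = 0.00692), beside 2.24 for Trak2. S100b, which encodes a calcium-binding protein, is 1 of the 14 astrocyte markers and the only one of them with an unadjusted p under 0.05. The median log2 fold change of the 14 was 0.45, and -0.25 as RPM of all reads, beside -0.89 and -1.58 for all tested genes. The oligodendrocyte markers, whose summed RPM was also higher in every CNO library, had 2 of 12 members called higher (0.0154% of tested genes). A log2 fold change above 0 was found for 8 of the 12 (31.7% of tested genes). The part of these markers in the difference of Trak2 was not tested. None of the other 9 members was among these 5 genes. Among the others, the closest gene was Ppfia2 for Kif1a (0.17), Pura for Kif1b (0.11), Cct5 for Kif5a (0.15), Wnk1 for Kif5b (0.14), Ankrd12 for Dync1h1 (0.17), Cd36 for Dync1li1 (0.10), Ppfia3 for Dync1li2 (0.14) and Dync2h1 for Trak1 (0.17).

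**Figure D4:**
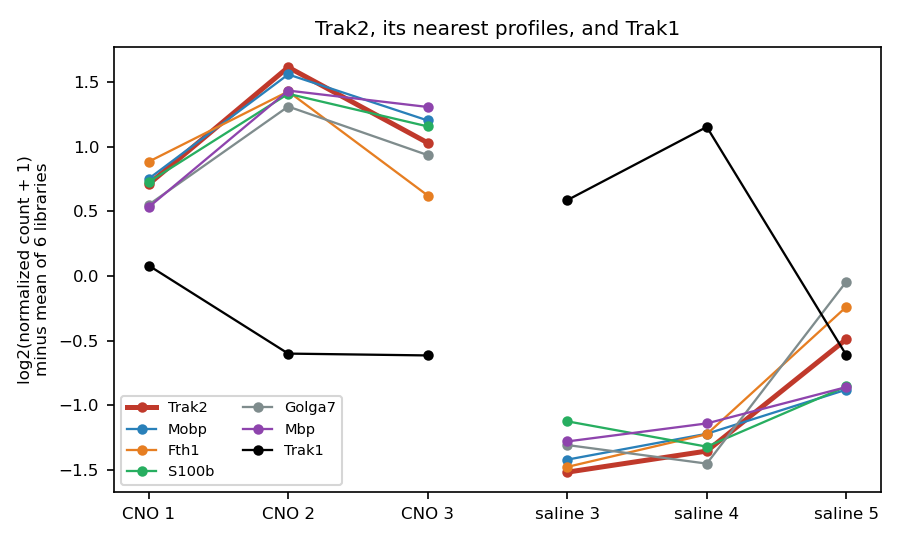
Log2(normalized count + 1) of Trak2, of the 5 genes nearest to it in profile and of Trak1, each minus its mean over 6 libraries, by library (lines join libraries of 1 group only for legibility). Trak2 and the 5 genes are above 0 in all CNO libraries and below 0 in all saline libraries. For the 5 genes this largely follows from their choice by likeness to Trak2.

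The wider transport machinery was read from 10 lists, and 0 genes of any of them passed in limma. At an unadjusted p under 0.05, 2.28% of all tested genes were higher and 7.25% lower. The median log2 fold change of all tested genes was -0.89, -0.08 with quantile scaling and 0.004 in DESeq2. It was -1.40 as RPM outside oligodendrocyte markers and -1.58 as RPM of all reads. Other transport kinesins had 17 of 18 members tested, with 1 higher and 0 lower at an unadjusted p under 0.05 and a median log2 fold change of -0.35, which was 0.0561 with quantile scaling and 0.0358 in DESeq2. The 1 was Kif1c, a kinesin-3, at 6195, 2597 and 1925 normalized counts in CNO and 713, 1864 and 786 in saline (limma adjusted p = 0.491). Kif16b, an endosomal kinesin, averaged 487 ± 521 in CNO and 87.6 ± 51.0 in saline, and Kif7, a kinesin of the primary cilium, 0.247 ± 0.427 in CNO and 21.6 ± 19.2 in saline. Of 14 mitotic kinesins 8 were tested, with 1 lower at an unadjusted p under 0.05, Kif18a, at 0, 4 and 0 reads in CNO and 77, 106 and 28 in saline, beside 7.25% of all tested genes lower. CNO libraries had reads for 8618 to 12820 genes and saline libraries for 14141 to 14491, and the part of this in the zeros of low genes was not tested. The median of the mitotic kinesins was -1.79, and it was below 0 under each scaling. Cenpe, the kinetochore kinesin, averaged 45.3 ± 43.3 in CNO and 229 ± 132 in saline, and Kif15, a spindle kinesin, 25.9 ± 44.9 in CNO and 80.9 ± 78.4 in saline. Each of the 14 had 0 reads in at least 1 library.

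Kinesin-1 light chains, which bind cargo, had 2 of 4 members tested. Klc1 averaged 1891 ± 1201 normalized counts in CNO and 719 ± 310 in saline, and Klc2 23.5 ± 39.9 in CNO and 55.1 ± 67.8 in saline, both with overlap. The median of the 2 was -0.75, beside 0.64 with quantile scaling and 0.09 in DESeq2. Among other dynein-1 subunits 6 of 8 were tested and 0 had an unadjusted p under 0.05. Dynlt3, a light chain, averaged 2232 ± 953 in CNO and 875 ± 114 in saline, without overlap there (adjusted p = 0.528 in limma) and with overlap as RPM, where CNO 1 had 79.3 and saline 5 had 99.1. The light chains Dynlrb1 and Dynlt1b differed in direction, with Dynlrb1 at 81.5 ± 70.6 in CNO, against 319 ± 208 in saline, and Dynlt1b at 221 ± 228 in CNO, against 102 ± 39.5 in saline. The median of 0.19 turned to -0.32 as RPM outside the oligodendrocyte markers and -0.51 as RPM of all reads. The medians of all tested genes were -0.89, -1.40 and -1.58 in the same order. The list median was 0.62 in DESeq2 and 0.01 with quantile scaling.

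Dynactin, the complex that makes dynein processive, had all 12 members tested, 2 higher and 0 lower at an unadjusted p under 0.05 (all tested genes 2.28% higher, 7.25% lower). Actr1b, a subunit of its short filament, stood at 3905, 2988 and 7129 normalized counts in CNO 1, 2 and 3 against 1338, 1484 and 1028 in saline (log2 fold change 1.78 ± 0.51, limma adjusted p = 0.488). Dctn4, at the pointed end of that filament, averaged 8477 ± 2123 in CNO and 3551 ± 1653 in saline, without overlap, while as RPM CNO 2 and CNO 3, at 541 and 413, were below saline 3, at 554. Capza1, a capping protein, had a log2 fold change of 0.58 ± 0.47, which was -0.11 with quantile scaling and -0.12 as RPM of all reads. The list median was -0.32, and it was above 0 in DESeq2 (0.13). Activators and regulators of dynein had 11 of 14 tested and 0 with an unadjusted p under 0.05, with a median of -0.36, and 0.58 in DESeq2. The activating adaptor Hook3 had 22216, 5375 and 5285 normalized counts in CNO 1, 2 and 3, against 5634, 4232 and 4339 in saline, so its CNO mean of 10959 rests on CNO 1. Its relative Hook2 averaged 5.11 ± 5.95 in CNO and 22.6 ± 8.48 in saline, and Ninl 27.3 ± 45.6 in CNO and 179 ± 129 in saline.

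The list on mitochondrial transport holds the partners of the TRAK proteins, with 14 of 15 members tested. At an unadjusted p under 0.05, 1 was higher and 1 lower (all tested genes 2.28% higher, 7.25% lower). Rhot1, which encodes Miro1 on the outer mitochondrial membrane, had 4598, 809 and 1812 normalized counts in CNO 1, 2 and 3 and 463, 570 and 711 in saline (log2 fold change 1.72 ± 0.73, limma adjusted p = 0.509). The groups did not overlap on this scale, but as RPM CNO 2, at 56.9, was below saline 4 and saline 5, at 59.3 and 74.2. In CNO 2, where Trak2 was highest, Rhot1 was lowest of its group. Disc1, a scaffold protein, had 0, 3 and 0 reads in CNO and 54, 125 and 300 in saline, and Mtx1, an outer membrane protein, averaged 29.9 ± 51.0 in CNO and 96.0 ± 62.2 in saline. The list median of 0.13 was 0.80 with quantile scaling and 0.53 in DESeq2. It was -0.39 as RPM outside oligodendrocyte markers and -0.58 as RPM of all reads, beside -1.40 and -1.58 for all tested genes. Cargo adaptors of kinesin-1 and kinesin-3 had 13 of 14 tested, 1 higher at an unadjusted p under 0.05 (2.28% of tested genes) and a median of 0.67. That median was 0.89 in DESeq2, 0.19 with quantile scaling and -0.029 as RPM of all reads. Arl8a, a lysosomal GTPase that recruits kinesins, averaged 1144 ± 348 in CNO and 385 ± 53.6 in saline, without overlap on either scale (limma adjusted p = 0.522). Ppfia2, liprin alpha 2, averaged 1008 ± 350 in CNO and 428 ± 141 in saline, and Madd, which links Kif1 motors to Rab3 vesicles, 249.6 ± 354 in CNO and 720 ± 285 in saline.

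Proteins of RNA granules had 22 of 23 members tested, with 3 higher and 0 lower at an unadjusted p under 0.05 (all tested genes 2.28% higher, 7.25% lower). Qk, which encodes quaking, an RNA-binding protein that acts on Mbp mRNA, was narrow in CNO, at 44753, 49601 and 48540 normalized counts, against 25294, 19047 and 34637 in saline 3, 4 and 5 (log2 fold change 0.90 ± 0.27, limma adjusted p = 0.488). Fxr1, of the fragile X family, averaged 6963 ± 5382 in CNO and 1398 ± 398 in saline. Ckap5, which binds microtubule ends and hnRNP A2, averaged 7710 ± 4047 in CNO and 2559 ± 498 in saline. On normalized counts none of these 3 overlapped between the groups (4.57% of tested genes were higher without overlap), and as RPM all 3 did. The list median was 0.13 and 0.26 in DESeq2, and it was below 0 with quantile scaling (-0.29) and on both RPM scales (-0.37 and -0.56).

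Tubulins and microtubule-associated proteins had the most genes with an unadjusted p under 0.05, 7 higher and 0 lower of 24 tested of 25 (all tested genes 2.28% higher, 7.25% lower). They were Tppp, Map1a, Map4, Map1b, Stmn4, Mapre1 and Tubb4a. Tppp, a tubulin-polymerizing protein of oligodendrocytes, had 7505, 10890 and 18827 normalized counts in CNO 1, 2 and 3 and 2477, 3182 and 3432 in saline, a log2 fold change of 1.94 ± 0.43 (limma adjusted p = 0.488). Map1a averaged 10995 ± 586 in CNO and 3702 ± 451 in saline, and Map4 averaged 42561 ± 7189 in CNO and 15380 ± 8301 in saline, both without overlap. As RPM Map1a still did not overlap, and Map4 did, with 2098 in CNO 1 and 2593 in saline 5. Stmn4 averaged 1816 ± 1657 in CNO and 181 ± 102 in saline. It was the 1 gene of all these lists that DESeq2 called, where 0.53% of tested genes were called higher and 1.91% in either direction. The list median was 0.55, and it was 0.95 in DESeq2, 0.55 with quantile scaling and -0.15 as RPM of all reads.

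**Figure D5:**
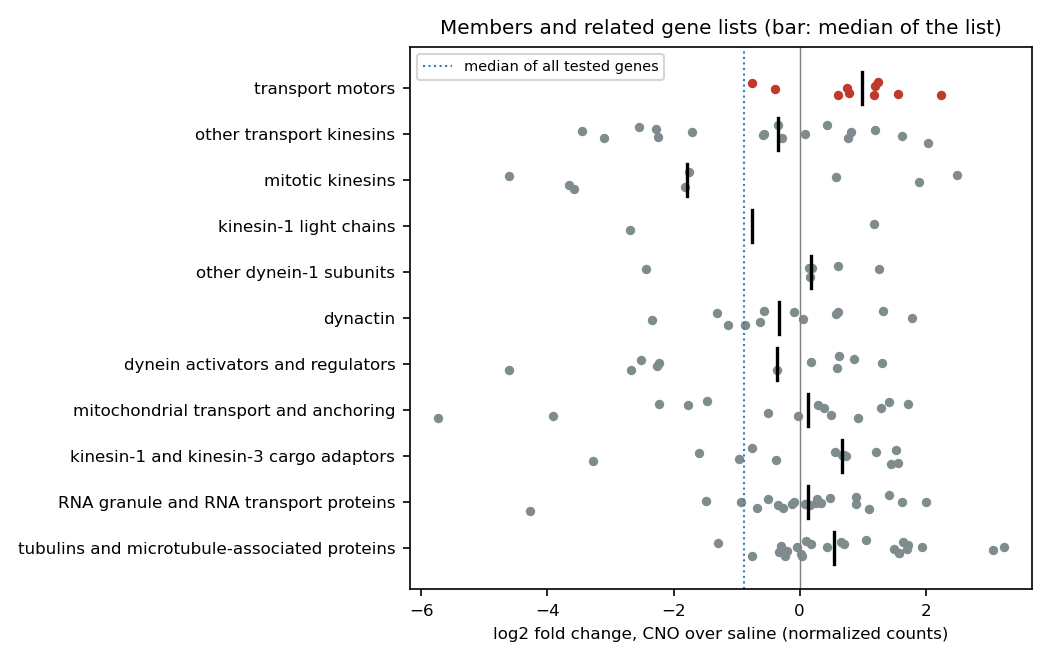
Log2 fold change, CNO over saline, of the 10 transport genes (red) and of the tested members of 10 related lists (grey), with the list median as a bar and the median of all tested genes, -0.89, as a dotted line. Lists of low-level genes such as mitotic kinesins reach far to the left, and the 10 transport genes run from -0.75 for Trak1 to 2.24 for Trak2.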

How the data were processed

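The authors deposited a signal: gene counts scaled by a size factor for each library. All values (100%, tolerance 1e-06 reads) were whole multiples of a step, which gave back the reads. The submitters' processing notes name Trimmomatic 0.4, FastQC 0.10.1, MultiQC 0.9, STAR 2.5.0a, DESeq2 1.20.0 and the build mm10. Which counter, gene models and strand setting were used is not given in the sources used here. Each of the 6 columns matched 1 library.

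Genes were tested with limma 3.58.1 (R 4.3.3, trend on, two-sided) on log2(normalized count + 1), so fold changes understate changes of low genes. The fit covered 13028 genes (mean 10 or more), with Benjamini-Hochberg adjustment over all of them at 0.05. Nothing says that libraries are separate animals, so p-values measure the spread between these libraries. Promoter windows on chromosome 18 were left out. Recovered reads served limma-voom, edgeR 4.0.16 and DESeq2 1.42.0. The method was tested on simulated data. The members, lists and tests were chosen with earlier results of these data known. Named genes are the members, called genes, the 3 genes of smallest p in each list, and nearest profiles (5 for Trak2, 1 for each other member), without predicted genes; 1 nearest profile is not reported here. Genes in counts of 5 or fewer, and Map1b, Stmn4, Mapre1 and Tubb4a, were named after their values were seen.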

Additional observations from a re-analysis of the deposited data

How the results depend on the processing

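Alternatives were other pseudocounts (0.5 and 8), filters, scalings, variance models and tests, a term for high Xist, and each library left out; RPM of all reads was added after the data were seen. Of the 220 values of the 10 genes under these 22 alternatives, 215 kept direction and side of the threshold, 3 (Trak2) gained a call and 2 (Kif5c, -0.0773 with quantile scaling and -0.0850 as RPM of all reads) turned. The cause was not tested.

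The 2 calls over all genes became 0 with a mean filter of 50, only genes read in every library, quantile scaling, either RPM scale, no variance trend, edgeR, and any library left out (0 to 0). They became 11 with array weights, 16 with limma-voom, 16 with edgeR without a filter and 249 with DESeq2. Calls among the 10 became 1 with array weights, limma-voom and DESeq2. The median of the 10, 0.99, moved to 0.41, 0.48 and 0.29 with quantile scaling, RPM outside oligodendrocyte markers and RPM of all reads. The median of all tested genes, -0.89, moved to -0.08, -1.40 and -1.58 in the same order. The gap between these medians was 1.87 on normalized counts, 0.49 with quantile scaling, and 1.88 and 1.87 on the RPM scales. With the Xist term Trak2 had a log2 fold change of 2.20 (limma adjusted p = 0.198).

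Leaving out 1 library, the difference in the log2 ratio ran from -0.0869 (without CNO replicate 3) to 0.85 for Kif1a over Kif1b and from -0.36 (without CNO replicate 1) to 0.31 for Kif5a over Kif5b, where leaving out saline replicate 4 (-0.05) or 5 (-0.0766) also turned it. Among other named genes, quantile scaling turned Kif7 (0.0561), Klc2 (0.38), Capza1 (-0.11) and Hook2 (0.68). RPM of all reads turned Capza1 (-0.12) and Dynlt1b (-0.0902), and leaving out 1 library gave Dynlt1b -0.24 (without CNO replicate 2) to 1.38. No paired analysis was possible because the groups share only 1 replicate number.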
